A study of Rattus norvegicus with 21 samples.

Results

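The comparison described here sets 3 livers of male Wistar rats given erlotinib at 2 mg/kg (erlotinib 2) against 3 livers given erlotinib at 0.5 mg/kg (erlotinib 0.5), 6 arrays of a series of 21. The 2 groups were chosen by the array titles, and all measured genes were compared. Every one of these rats had also been injected weekly for 18 weeks with 50 mg/kg of diethylnitrosamine (DEN), a hepatocarcinogen that hepatocytes activate, and the labels give their livers as cirrhotic. Erlotinib was injected on 5 days of each week during weeks 13 to 18, and RNA came from non-tumour liver taken at the time point labelled week 18. For orientation, 3 DEN-treated rats injected with vehicle in place of erlotinib and 3 rats given phosphate-buffered saline (PBS) in place of DEN, all of week 18, are used beside them. The titles give the PBS rats no second treatment (None), so vehicle and PBS livers differ in the injections of vehicle as well as in DEN. The lower dose was given in a separate study, so dose and study cannot be told apart in any difference below. The submitters pooled the vehicle animals of the studies, and the labels do not say which study each came from. Nothing in the labels beyond an own number for each rat shows how the animals were kept. The p-values measure the spread between livers within groups, pooled over all 21 arrays and not taken from the 6 compared livers alone.

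Total RNA was hybridised to Illumina bead arrays of 22523 probes, 1 array per liver. Values are log2 intensities after background correction and quantile normalization, and 19339 features passed the filter on dim probes, 12112 of them named genes. Raw array medians were 127.1 to 158.5 in erlotinib 2 and 138.8 to 154.7 in erlotinib 0.5. Pairs of arrays correlated at 0.9872 to 0.9882 within erlotinib 2, at 0.9854 to 0.9906 within erlotinib 0.5 and at 0.9803 to 0.9877 between them. On the first principal component of all 21 arrays, which held 50.7% of the variance, the erlotinib 2 arrays lay at -11.7 to -3.3, the erlotinib 0.5 arrays at 12.2 to 15, the vehicle arrays at 17.1 to 34.5 and the PBS arrays of week 18 at -46.6 to -44.2. Vehicle array 24 stood apart on the third component, at 34.5, where the other arrays of week 18 lay between -6.8 and 6.2. The median difference of all features, erlotinib 2 minus erlotinib 0.5, was -0.002, but it became 0.115 when arrays were scaled on bright probes alone. All 6 livers expressed secreted hepatocyte proteins strongly, at a summed linear intensity of 621000 to 648000 with erlotinib 2 and 590000 to 618000 with erlotinib 0.5 over 28 genes.

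Erlotinib inhibits EGFR, the epidermal growth factor receptor, a tyrosine kinase of hepatocytes, bile duct cells and stellate cells whose signal passes through the RAS and ERK kinases and drives growth. In a chronically injured liver, stellate cells become contractile myofibroblasts that lay down fibrillar collagen, while lysyl oxidases crosslink it. Many genes of rat hepatocytes are expressed more in males, because the pulses of pituitary growth hormone in males act through the growth hormone receptor and STAT5b, and this pattern is known to fade in injured liver.

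Between the erlotinib groups, 15 features were called at a Benjamini-Hochberg adjusted p under 0.05 (limma), 0.0776% of all features. They were 7 features that were higher with erlotinib 2 (0.0362%) and 8 that were lower (0.0414%). The lower ones were genes of contractile cells and scar matrix, Tagln, Col1a1, Loxl1, Adamts2 and Vim, with Gpx3, Serpine2 and Pdgfa. Male-biased secreted proteins and hepatocyte genes, Mup4l3, Obp3, Stac3, Mug2 and Ghr, were higher, with Sez6 and a probe that carries no gene name. At an unadjusted p under 0.05 there were 736 higher features (3.81%) and 813 lower ones (4.2%), and the arrays of the groups did not overlap in 1431 features on the higher side (7.4%) and 1637 on the lower (8.46%).

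**Figure D1:**
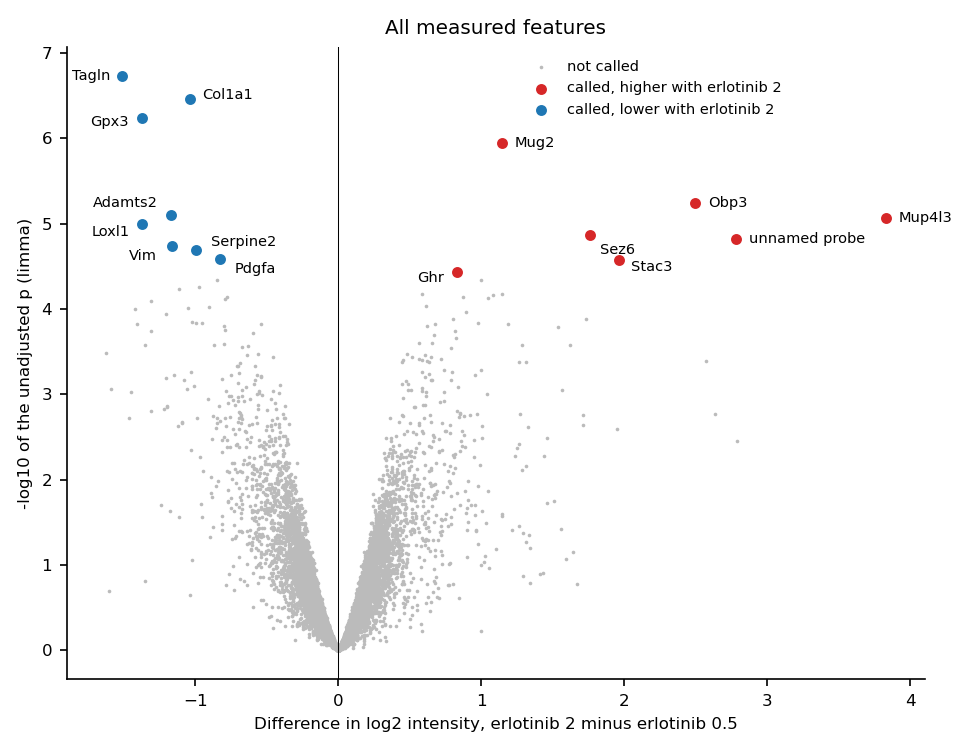
Each point is a feature, with its difference in log2 intensity between erlotinib 2 and erlotinib 0.5 on the x axis and the −log10 of its unadjusted limma p on the y axis. The 15 called features are coloured and named, and the differences reach further on the higher side, to 3.83 for Mup4l3, than on the lower, to -1.51 for Tagln among the called genes.

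The number of calls depended on the settings. It was 4 with the deposited normalized table (1 higher, 3 lower), 5 without background correction (1 higher, 4 lower), 1 with median scaling (0 higher, 1 lower) and 3 with scaling on bright probes (1 higher, 2 lower), against 92 in a fit of the week 18 arrays (48 higher, 44 lower) and 273 in a fit of the 6 compared arrays alone (133 higher, 140 lower). Leaving out an array gave 3 calls without array 27, 1 without array 29 and 29 without array 31 of erlotinib 2, and 5 without array 73, 3 without array 74 and 21 without array 79 of erlotinib 0.5. Each of the 15 differences kept its sign under all 18 alternatives, but most of these could not change it. Leaving out or weighting arrays cannot turn a difference between groups that do not overlap. Another spread, a threshold or a fit without the other groups leaves the difference as it was. Other scalings, no background correction and the probe mean were free to change a sign. Of the 18 alternatives, Tagln was called under 18, Gpx3 under 16, Col1a1 under 15 and Mug2 under 14, and the other 11 features under 8 to 11. Without 1 array, Tagln was called in 6 of 6 fits, Col1a1 and Gpx3 lost their call without array 29, Mug2 without array 27, 29 or 74, and each of the others without at least 4 of the arrays, among them 27, 29 and 74.

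Tagln, the smooth muscle protein transgelin that marks myofibroblasts, read 7.94, 7.82 and 7.58 on the erlotinib 2 arrays and 9.34, 8.91 and 9.61 on the erlotinib 0.5 arrays. All 3 livers of the higher dose lay below all 3 of the lower one, and the gene fell by 1.51 ± 0.20 (SE), 2.85-fold (limma adjusted p = 0.00338). Vehicle livers were at 9.79, 9.76 and 9.28 and PBS livers at 6.83, 6.66 and 6.74, so the erlotinib 0.5 values reached into the vehicle range while those of erlotinib 2 lay between vehicle and PBS. In bulk tissue, fewer cells of a type and less RNA per cell cannot be told apart.

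Col1a1, a chain of type I collagen and the main fibril of scar, read 6.67, 6.37 and 6.66 with erlotinib 2 and 7.70, 7.59 and 7.51 with erlotinib 0.5. The groups did not overlap, and the difference was -1.04 ± 0.14 (limma adjusted p = 0.00338). The probe was dim, with a PBS mean of 6.10 that lies under 6.38, the median of all normalized values, so changes against PBS are understated. The brighter probe of the partner chain, Col1a2, read 11.07, 10.65 and 11.16 with erlotinib 2 and 12.12, 11.96 and 12.41 with erlotinib 0.5, again without overlap, but its difference of -1.20 ± 0.26 missed the threshold (limma adjusted p = 0.0676).

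Enzymes that process and crosslink collagen were among the called genes as well. Loxl1, a lysyl oxidase, read 6.96, 6.77 and 7.30 with erlotinib 2 against 8.27, 8.41 and 8.48 with erlotinib 0.5, a difference of -1.37 ± 0.24 (limma adjusted p = 0.0242). Its other probe gave -1.42. Adamts2, which cuts the amino-terminal propeptide from procollagen, read 7.93, 8.06 and 8.27 against 9.40, 9.19 and 9.19, a difference of -1.17 ± 0.20 (limma adjusted p = 0.0239). In both genes every erlotinib 2 liver was lower than every erlotinib 0.5 liver, and the erlotinib 0.5 mean was within 0.07 log2 units of the vehicle mean (0.04 above it for Loxl1 and -0.07 from it for Adamts2).

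Vim, the intermediate filament vimentin of mesenchymal cells, was lower by 2.24-fold (-1.17 ± 0.21, limma adjusted p = 0.0321), from 11.78, 11.94 and 12.80 with erlotinib 0.5 to 10.96, 10.82 and 11.23 with erlotinib 2. The erlotinib 0.5 group was uneven here, with array 79 the highest of the 6 livers. Pdgfa, a platelet-derived growth factor chain that attracts and stimulates mesenchymal cells, was lower by 1.77-fold (-0.83 ± 0.15, limma adjusted p = 0.0372). Serpine2, an inhibitor of thrombin and plasminogen activators, read 7.38, 7.68 and 8 against 8.63, 8.76 and 8.66, a difference of -0.995 ± 0.18 (limma adjusted p = 0.0327). Its erlotinib 2 mean of 7.69 ± 0.31 (SD, n = 3) was level with the PBS mean of 7.70 ± 0.14. Gpx3, a secreted glutathione peroxidase, read 9.09, 8.83 and 9.55 against 10.70, 10.55 and 10.35, with a difference of -1.38 ± 0.20 (limma adjusted p = 0.00373) and no overlap.

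**Figure D2:**
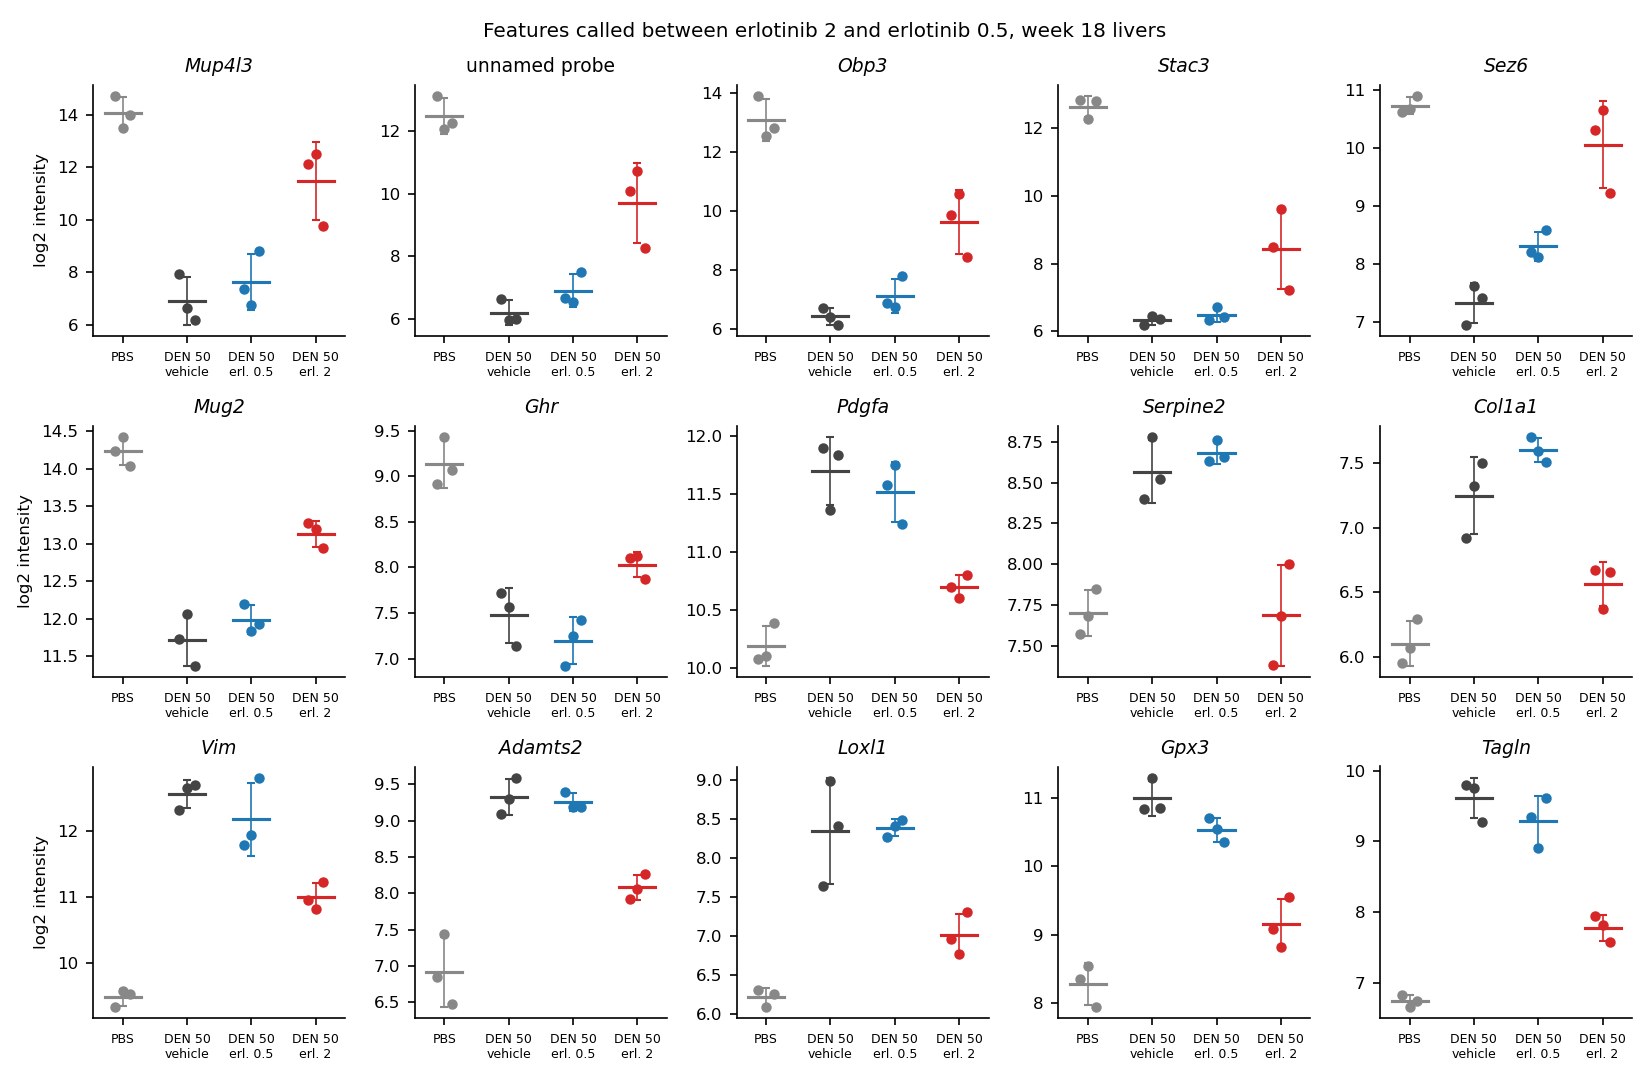
Log2 intensity of the 15 called features in each liver of the 4 week 18 groups: points are arrays, wide lines group means and bars the SD of 3 arrays. In all 15 panels the erlotinib 2 arrays lie apart from the erlotinib 0.5 arrays and on the PBS side of the vehicle mean.

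The lists below were written from knowledge of the liver with earlier results of these data known, so their counts describe them and test nothing. Scaling on bright probes moved the median of all features to 0.115, so it raises differences in general and not those of a list alone. Of all features, 8.46% lay below and 7.4% above without overlap, and 0.0414% were called lower and 0.0362% higher. Each list count is to be read beside these shares. They were taken in the main setting only, so counts under other scalings have no such share beside them. Of 13 collagens measured, 0 were called higher and 1 lower, 7 lay without overlap below the erlotinib 0.5 livers and 1 above, and the median difference was -0.47. Col3a1, a fibrillar collagen, differed by -1.09 ± 0.31 (limma adjusted p = 0.202) and Col6a1, of the microfibrils around cells, by -0.67 ± 0.19 (limma adjusted p = 0.191). Among 15 other matrix proteins none was called, 6 lay below without overlap and the median was -0.35, while their summed linear intensity overlapped (14000 to 17100 against 13200 to 18900). Mgp, matrix Gla protein, read 8.52, 8.52 and 9.04 with erlotinib 2 and 9.99, 9.51 and 10.84 with erlotinib 0.5 (limma adjusted p = 0.0631). The differences were -0.64 for the proteoglycan biglycan (Bgn), -0.85 for Fbln5, an elastic fibre protein, and -0.70 for Sparc, a collagen-binding matricellular protein, and none passed the test.

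In the list of matrix crosslinking and turnover 2 of 22 genes were called lower and 0 higher, 8 lay below without overlap and 0 above, and the median was -0.20, or -0.11 with the deposited table and -0.08 with scaling on bright probes. Lox, the founding lysyl oxidase, read 8.22, 8.59 and 8.45 against 9.67, 9.57 and 9.94, just outside the threshold (-1.31 ± 0.27, limma adjusted p = 0.0585). It was the one of these genes whose PBS mean, 10.59, exceeded both erlotinib means. Plod2, a lysyl hydroxylase, differed by -0.58 (limma adjusted p = 0.125) and Timp1, which inhibits metalloproteinases of the matrix, by -0.77 (limma adjusted p = 0.165). Of 14 stellate cell and myofibroblast genes 3 were called lower, Tagln, Vim and Pdgfa, and 0 higher; 5 lay below without overlap, and the median of -0.09 turned to 0.05 with scaling on bright probes. Cygb, a globin of stellate cells, differed by -0.51 (limma adjusted p = 0.327).

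Transforming growth factor beta is the best known inducer of these matrix genes. None of its 16 pathway genes was called, and the median of -0.02 became 0.04 with scaling on bright probes. Without overlap 2 lay below and 2 above, beside 8.46% and 7.4% of all features. The ligand Tgfb1 differed by -0.25, with a 95% interval of -0.68 to 0.18 (limma adjusted p = 0.85). Pmepa1, a feedback inhibitor induced by the pathway, differed by -0.81 ± 0.20 (limma adjusted p = 0.125), Ltbp1, which anchors the latent ligand, by -0.43, and Tgfbi, an induced matrix protein, by 0.36.

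Summed markers of several cell types lay in the same direction as the matrix genes. The summed linear intensity of the 14 stellate and myofibroblast genes was 6460 to 8030 in erlotinib 2 and 10500 to 13900 in erlotinib 0.5, with 5 of them near background in each group. Vim and Pdgfa, called above, are bright (means of 12.17 and 11.52 with erlotinib 0.5) and weigh heavily in this sum. The median of the list was -0.09, with 5 positive and 9 negative differences. For 11 biliary and progenitor markers the sum was 12000 to 15900 against 21700 to 24900. For 23 Kupffer cell and macrophage markers it was 16900 to 20400 against 21200 to 24000. The Kupffer cell and macrophage genes were mixed, with 8 positive and 15 negative differences, from -0.7 to 0.91, and no call. Their median was -0.12, or -0.06 with scaling on bright probes, and 6 lay below and 1 above without overlap. The 20 endothelial markers summed to 6690 to 8750 against 7800 to 11900, which overlap. Sums for 7 markers of mesothelium and capsule were 1130 to 1450 against 1400 to 1700, which overlap too, with 4 and 2 near background. This list shares the keratins Krt7 and Krt19 with the biliary and progenitor markers, so the 2 lists are not separate. Krt19 read 8.81, 7.86 and 8.01 with erlotinib 2 and 8.71, 9.34 and 9.31 with erlotinib 0.5. Red cell markers (13 genes) ran from 17000 to 47500 against 15600 to 28100, lymphocyte markers (23 genes) from 2710 to 2840 against 2480 to 3270, and neutrophil markers (11 genes) from 1290 to 2000 against 1600 to 1950. Mast cell markers (15 genes) summed to 1320 to 1370 against 1270 to 1700, and pancreatic acinar markers (13 genes), a check for stray tissue, to 1040 to 1260 against 1070 to 1160. The part of any of these in the matrix differences was not tested.

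**Figure D3:**
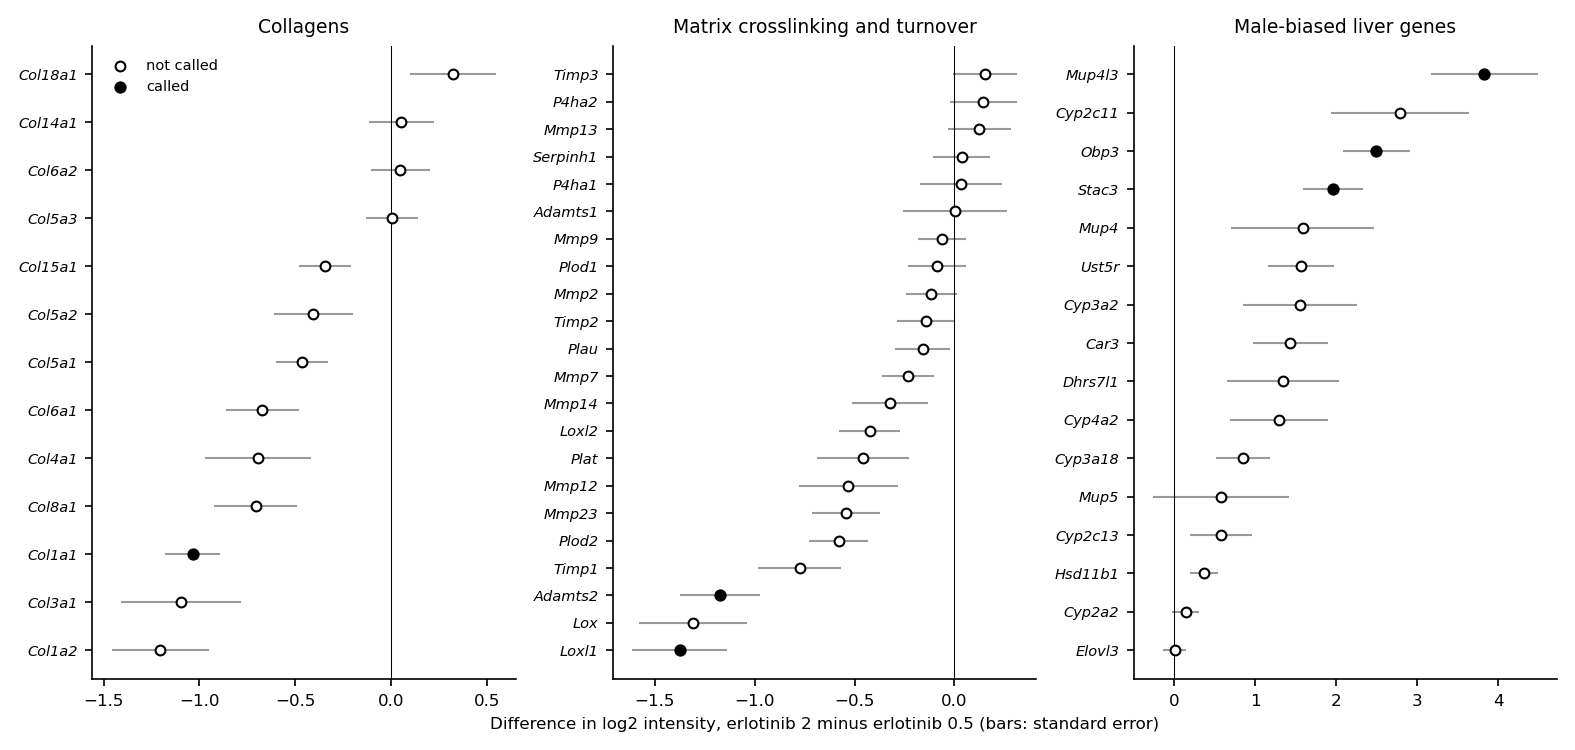
Difference in log2 intensity, erlotinib 2 minus erlotinib 0.5, for every measured collagen, gene of matrix crosslinking and turnover, and male-biased liver gene, with the standard error as a bar and filled points for called genes. Most of the 13 collagens lie left of 0, led by Col1a2, Col3a1 and Col1a1, and all 16 male-biased genes lie right of 0, with Elovl3 at it.

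On the higher side, the largest difference among all called features belonged to Mup4l3, a gene of the major urinary protein family that male rat hepatocytes secrete. It read 12.12, 12.52 and 9.76 with erlotinib 2 and 7.35, 6.75 and 8.80 with erlotinib 0.5. The groups did not overlap, but array 31 came within 1 log2 unit of the top erlotinib 0.5 liver, array 79. The difference was 3.83 ± 0.66, 14.2-fold (limma adjusted p = 0.0239). Vehicle livers read 7.95, 6.64 and 6.18 and PBS livers 14.71, 13.50 and 14.

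Obp3, of the same family, encodes an alpha-2u globulin, a lipocalin that male liver passes into urine. It read 9.86, 10.58 and 8.46 with erlotinib 2 and 6.88, 6.74 and 7.79 with erlotinib 0.5, a difference of 2.50 ± 0.42 (limma adjusted p = 0.0221). The array order was that of Mup4l3, with array 31 lowest in its group and array 79 highest in the other. Members of this family are close copies, and binding of their transcripts to each other's probes was not tested. A probe without a gene name, ILMN_1366136, ran in the same order, at 10.10, 10.71 and 8.26 against 6.68, 6.53 and 7.51 (2.78 ± 0.50, limma adjusted p = 0.0296).

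The promoters of Obp3 and Mup4l3 are printed because both genes moved together and are near copies. They are RefSeq windows of 300 bases, from 250 before to 50 after the start on GRCr8, at chr5:79640626-79640925 and chr5:80318323-80318622, both on the minus strand. Capitals mark bases that differ or have no partner in a global alignment, in which 279 of 297 paired positions (93.9%) were identical and 6 bases were unpaired.
Obp3: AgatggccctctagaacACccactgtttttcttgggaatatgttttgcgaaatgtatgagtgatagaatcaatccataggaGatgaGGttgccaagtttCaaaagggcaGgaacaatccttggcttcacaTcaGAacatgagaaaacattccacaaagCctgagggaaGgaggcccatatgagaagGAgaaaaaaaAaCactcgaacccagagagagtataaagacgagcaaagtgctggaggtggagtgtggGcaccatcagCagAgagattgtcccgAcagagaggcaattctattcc
Mup4l3: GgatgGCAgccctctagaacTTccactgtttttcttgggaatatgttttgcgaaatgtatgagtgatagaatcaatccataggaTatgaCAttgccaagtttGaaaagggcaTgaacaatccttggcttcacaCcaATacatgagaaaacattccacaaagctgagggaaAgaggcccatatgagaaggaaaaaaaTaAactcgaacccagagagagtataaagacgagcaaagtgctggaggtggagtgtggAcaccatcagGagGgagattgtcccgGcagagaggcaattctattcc
Promoters were found in the RefSeq table for 11 of the 14 named called genes. A STAT site, spelled TTCNNNGAA, was present on either strand in 1 of the 11, Pdgfa, and in 8.68% of all 27457 promoters of the table. The E-box CACGTG (6.65% of all promoters), the D-box TTATGTAA (0.881%) and the AP-1 site TGACTCA (4.53%) were in 0 of the 11. Absence from these windows says nothing about sites elsewhere.

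Stac3, known for its part in muscle calcium release, is a male-biased transcript in rat liver. It read 8.49, 9.62 and 7.23 with erlotinib 2 and 6.33, 6.71 and 6.42 with erlotinib 0.5 (1.96 ± 0.37, limma adjusted p = 0.0372). The vehicle mean of 6.34 was near background, and PBS livers lay far above all DEN livers, at 12.65 ± 0.31 (SD, n = 3). Sez6, a membrane protein best known from neurons, read 10.31, 10.65 and 9.22 against 8.21, 8.12 and 8.58 (1.76 ± 0.31, limma adjusted p = 0.0291). Its erlotinib 2 mean of 10.06 ± 0.75 came close to the PBS mean of 10.73 ± 0.15.

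Mug2, murinoglobulin, a secreted protease inhibitor of rodent hepatocytes, was evenly raised: 13.27, 13.19 and 12.94 with erlotinib 2 against 12.20, 11.83 and 11.93 with erlotinib 0.5 (1.15 ± 0.17, limma adjusted p = 0.00558). Ghr, the growth hormone receptor, read 8.10, 8.12 and 7.87 against 6.92, 7.25 and 7.42 (0.83 ± 0.16, limma adjusted p = 0.0473). These genes had within-group spreads of 0.14 to 0.25 (SD), against 1.05 to 1.49 for Mup4l3, and array 31 was the lowest of its group in them too.

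All 16 measured male-biased genes had a positive difference: 3 were called higher, 12 lay above the erlotinib 0.5 livers without overlap, and the median was 1.39. Cyp2c11, the main male-specific cytochrome P450 of rat liver, read 13.18, 13.54 and 10.89 with erlotinib 2 and 8.31, 10.46 and 10.47 with erlotinib 0.5. Array 31 lay just above the 2 higher erlotinib 0.5 livers, and the difference of 2.79 ± 0.85 did not pass the test (limma adjusted p = 0.249). Ust5r, an organic anion transporter, differed by 1.56 ± 0.41 (limma adjusted p = 0.142), and Cyp3a2, another male-predominant P450, by 1.56 ± 0.70 (limma adjusted p = 0.576). The list's summed linear intensity was 154000 to 232000 with erlotinib 2, 90100 to 122000 with erlotinib 0.5, 27000 to 101000 with vehicle and 274000 to 308000 with PBS.

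Of 10 female-biased genes none was called, 3 lay above and 1 below without overlap, and the median was 0.04, or 0.17 with scaling on bright probes. Differences were positive in 5 and negative in 5, from -0.555 to 1.46. Cyp2c7, a P450 more abundant in female liver, differed by 1.46 ± 0.57 (limma adjusted p = 0.466) and Cyp3a9 by 1.25 ± 0.39 (limma adjusted p = 0.269). Among 22 genes of the growth hormone receptor and insulin-like growth factor axis, Ghr was called higher and 0 lower, 3 lay above without overlap and 0 below, and the median of 0.03 was -0.001 with median scaling. Igfals, the growth hormone induced subunit that holds insulin-like growth factor in plasma, read 8.29, 8.36 and 8.29 against 7.87, 7.63 and 7.62 (0.61 ± 0.14, limma adjusted p = 0.101).

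Genes of several metabolic and secretory lists of hepatocytes lay mostly on the higher side with erlotinib 2, although none of these lists held a called gene. A fit of the compared arrays alone called 8 urea cycle and amino acid genes, 4 of P450 and drug metabolism and 2 of fatty acid oxidation, all higher. Glycolysis and gluconeogenesis was a list without that lean, with 13 positive and 15 negative differences, 3 genes above and 5 below without overlap, and a median of -0.02 that became 0.08 with scaling on bright probes. Of 31 genes of the urea cycle and amino acid catabolism, 29 had a positive difference and 16 lay above without overlap, with a median of 0.42. Gnmt, which consumes S-adenosylmethionine, read 12.48, 13.35 and 13.18 against 11.65, 12.04 and 11.34 (1.33 ± 0.39, limma adjusted p = 0.208). Hal, histidine ammonia-lyase, differed by 0.96 (limma adjusted p = 0.122), Agxt, which detoxifies glyoxylate, by 0.85 (limma adjusted p = 0.191) and Tdo2, which opens tryptophan breakdown, by 0.88 (limma adjusted p = 0.237). Fatty acid oxidation and ketone body genes had 25 of 26 positive differences, 8 above without overlap (5 with median scaling) and a median of 0.29, with the ketone body enzyme Bdh1 at 0.50 (limma adjusted p = 0.202). For 28 coagulation and complement genes, 25 were positive, 11 lay above without overlap and the median was 0.29. The count above was 15 with median scaling and 19 with scaling on bright probes, which raised the median of all features as well. In the list of 39 cytochrome P450 and drug metabolism genes 14 lay above and 2 below without overlap, with a median of 0.27. It held 28 positive and 11 negative differences, from -1.6 to 2.79. The list shares Cyp2c11, Cyp2c13, Cyp2a2, Cyp3a2, Cyp3a18 and Cyp4a2 with the male-biased genes, so the 2 lists are not separate. Cyp1a2, a hepatocyte P450 of caffeine metabolism, read 11.65, 11.04 and 10.85 against 9.00, 10.18 and 10.41 (1.31 ± 0.44, limma adjusted p = 0.334). Cyp1a1, a related P450 outside that list, went the other way without overlap. It read 7.79, 8.13 and 7.13 against 9.42, 9.25 and 8.77 (-1.465 ± 0.41, limma adjusted p = 0.191).

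Markers of bile duct and progenitor cells and of preneoplastic foci lay on the other side, again without a call. Of 11 biliary and progenitor markers, 10 had a negative difference, 7 lay below without overlap, and the median was -0.64. Spp1, osteopontin, read 7.25, 7.39 and 7.45 with erlotinib 2 and 8.12, 9.17 and 9.57 with erlotinib 0.5, and the spread within the lower dose left it at -1.59 ± 0.41 (limma adjusted p = 0.142). Cd24, a surface protein of progenitor cells, differed by -1.20 ± 0.33 (limma adjusted p = 0.17), Tspan8 by -0.91 ± 0.24 (limma adjusted p = 0.157), the keratin Krt8 by -0.64 ± 0.21 (limma adjusted p = 0.327) and Krt19, the duct keratin, by -0.90 ± 0.43 (limma adjusted p = 0.612).

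Among 16 preneoplastic and oncofetal markers, 13 were negative and 11 lay below without overlap, with a median of -0.59. With median scaling 9 lay below, and 6 with scaling on bright probes, where the median was -0.48. Gpc3, the oncofetal proteoglycan glypican 3, read 8.32, 8.31 and 8.13 with erlotinib 2 and 8.79, 9.00 and 9.29 with erlotinib 0.5, just outside the threshold (-0.78 ± 0.16, limma adjusted p = 0.0571). Vehicle livers read 10.17, 10.24 and 9.88, above every erlotinib liver, and PBS livers 6.33, 6.46 and 6.53. The glycolytic enzyme Aldoa differed by -0.76 (limma adjusted p = 0.149) and Abcc3, an organic anion pump, by -0.68 (limma adjusted p = 0.191). Gstp1, the placental glutathione transferase that marks rat foci, read 13.45, 13.77 and 12.17 against 13.69, 13.95 and 14.30, which overlap (limma adjusted p = 0.405). Afp, alpha-fetoprotein, differed by 0.18 with a 95% interval of -0.28 to 0.64.

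In 23 targets of NRF2, the regulator of antioxidant enzymes, 9 lay below without overlap and 0 above, and the median was -0.29. With scaling on bright probes 2 lay below and the median was -0.14. Txn1, thioredoxin, differed by -0.47 (limma adjusted p = 0.245) and the quinone reductase Nqo1 by -0.68 (limma adjusted p = 0.526). Of 45 cytosolic ribosomal proteins 24 lay below and 1 above without overlap, with a median of -0.22, but 6 lay below with median scaling and 6 with scaling on bright probes, where the median was -0.04. Rpl19 was at -0.41 ± 0.10 (limma adjusted p = 0.135).

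For cell cycle and DNA replication genes the vehicle livers lay nearer to erlotinib 2. Of 34 genes, 33 had a negative difference and 8 lay below without overlap, with a median of -0.26 and no call. The median against vehicle was 0.003 for erlotinib 2 and 0.26 for erlotinib 0.5. Summed linear intensity was 10100 to 11400 with erlotinib 2, 14500 to 18800 with erlotinib 0.5, 9200 to 14000 with vehicle and 5880 to 6790 with PBS, so that the erlotinib 2 values lay inside the vehicle range and those of erlotinib 0.5 above it. Ccnd1, cyclin D1, which ERK signalling induces, read 9.95, 10.63 and 11.27 with erlotinib 2, 12.32, 12.40 and 11.47 with erlotinib 0.5, and 9.96, 11.22 and 10.91 with vehicle. Its difference between the doses was -1.45 ± 0.38 (limma adjusted p = 0.143). Vehicle array 24, which stood apart on the third component, was the lowest vehicle liver for Ccnd1. The mitotic kinase gene Cdk1 read 7.92 on that array and 9.11 and 9.23 on the other vehicle arrays, against means of 8.82 with erlotinib 2 and 9.39 with erlotinib 0.5. The position of vehicle for this list was not tested without array 24. Tpx2, a spindle assembly factor, differed by -0.60 (limma adjusted p = 0.358).

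The genes of the drug's own pathway gave no call. Of 16 EGFR ligands, receptors and receptor inhibitors, 2 lay above and 2 below without overlap, beside 7.4% and 8.46% of all features. The median was 0.02, or 0.16 with scaling on bright probes, with 8 of the 16 near background in each group. Egfr itself read 7.80, 7.22 and 7.53 with erlotinib 2 and 7.14, 6.89 and 6.86 with erlotinib 0.5, a difference of 0.56 with a 95% interval of 0.04 to 1.08 (limma adjusted p = 0.576). The ligand Egf read 7.90, 8.09 and 8.04 against 7.44, 7.64 and 7.61, with an interval of 0.13 to 0.77 around 0.45 (limma adjusted p = 0.36). Tgfa, the ligand that hepatocytes make, differed by -0.20, with an interval of -0.64 to 0.23 (limma adjusted p = 0.89). Nrg1, a ligand of the sister receptors, differed by -0.52 ± 0.18 (limma adjusted p = 0.39), and Errfi1, which binds and inhibits the receptor kinase, by 0.97 ± 0.44 (limma adjusted p = 0.582). In 14 ERK feedback inhibitors and ETS factors, 0 lay above and 1 below without overlap, and the median of -0.02 became 0.10 with scaling on bright probes. The 1 below was Ccnd1, given above with the cell cycle genes. Near background were 6 of the 14 with erlotinib 2 and 5 with erlotinib 0.5. Dusp6, a bright ERK phosphatase gene, differed by 0.05 ± 0.24 (limma adjusted p = 0.985). Spry4, near background in both groups, differed by -0.04 ± 0.13 (limma adjusted p = 0.973).

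**Figure D4:**
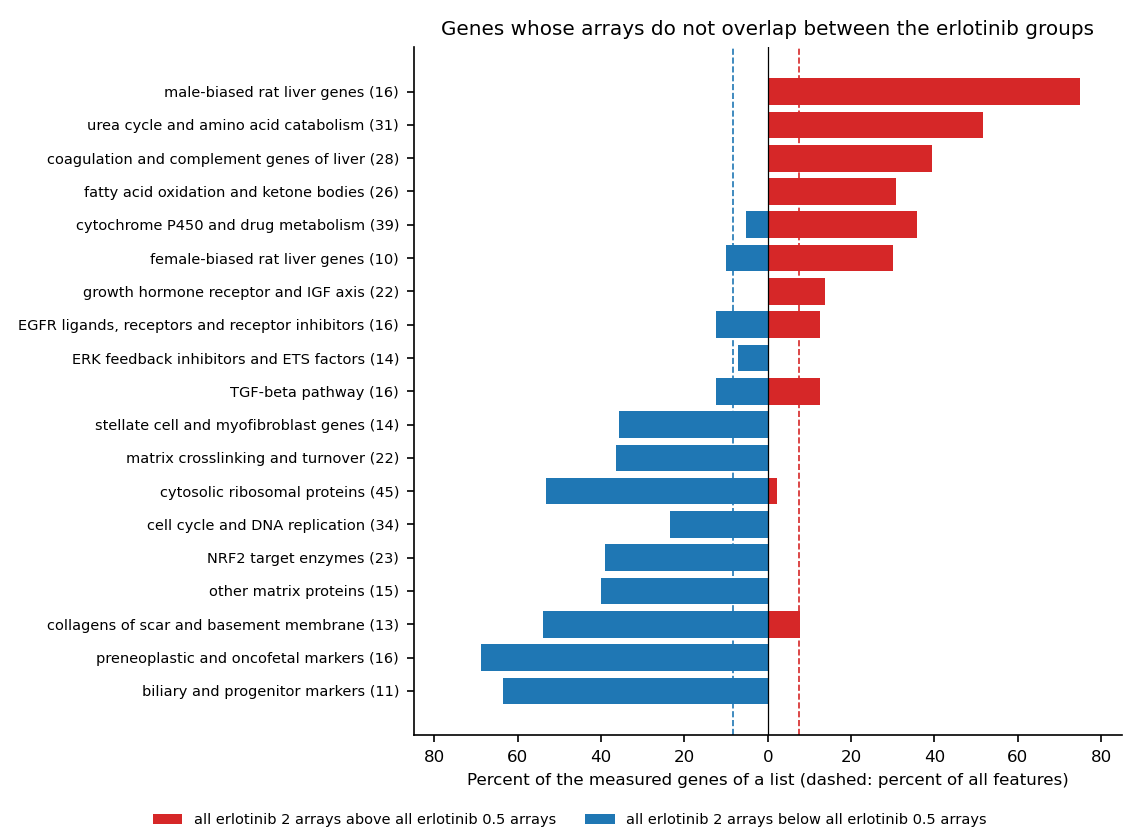
Percent of the measured genes of each list, with their number in brackets, whose 3 erlotinib 2 arrays all lie above (right) or all below (left) the 3 erlotinib 0.5 arrays, beside the percent of all features as dashed lines (7.4% above, 8.46% below). Lists are ordered by median difference, from male-biased genes at 1.39 to biliary and progenitor markers at -0.64.

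The level of the vehicle livers does not enter the difference between the doses, and for the 15 called features their mean lay nearer to erlotinib 0.5 than to erlotinib 2 in 15 of 15. It did so in 15 without vehicle array 24 too, an alternative added after the data were seen. The erlotinib 2 mean lay on the PBS side of the vehicle mean in 15, and between vehicle and PBS in 14, with Serpine2 as the exception. The erlotinib 0.5 mean lay between vehicle and erlotinib 2 in 11, and vehicle between the erlotinib means in 4. The largest distance of erlotinib 0.5 from vehicle was 0.98, for Sez6, and the smallest of erlotinib 2 was 0.55, for Ghr.

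Each dose was also set against the vehicle livers, in comparisons that share arrays with the one above and with each other. Erlotinib 2 gave 780 called features (4.03%), 371 higher (1.92%) and 409 lower (2.11%), and erlotinib 0.5 gave 27 (0.14%), 20 higher (0.103%) and 7 lower (0.0362%) by limma. Of the 15 features, 14 were called in the first comparison and 0 in the second. The erlotinib arrays that chose these features also enter the 2 comparisons, so the 2 counts describe the features and test nothing. Side by side, the differences from vehicle were -1.83 and -0.33 for Tagln, 4.54 and 0.71 for Mup4l3, -1.84 and -0.46 for Gpx3, and -0.68 and 0.35 for Col1a1, erlotinib 2 first. Those counts depended on single arrays and on scaling. For erlotinib 2 against vehicle they were 332 without array 29, 501 without array 31 and 466 without vehicle array 69, and 125 (81 higher, 44 lower) with median scaling or 337 (208 higher, 129 lower) with scaling on bright probes. For erlotinib 0.5 against vehicle they were 3 without array 73, 8 without array 74 and 8 without vehicle array 69, and 0 by limma with median scaling or with scaling on bright probes, where 957 and 1057 features had an unadjusted p under 0.05.

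The difference between vehicle and PBS livers at week 18, in which DEN and the vehicle injections cannot be told apart, shares no array with the difference between the erlotinib doses. It held 3528 called features (18.2%), of which 1839 were higher in vehicle (9.51%) and 1689 lower (8.73%) by limma. That split depended on scaling, with 1560 higher and 403 lower with median scaling and 800 higher and 1144 lower with scaling on bright probes. Of the 1839 features that were higher in vehicle than in PBS livers, 1632 (88.7%) were lower with erlotinib 2 than with erlotinib 0.5, with a median of -0.23, and 707 of them (38.4%) lay below without overlap, against 8.46% of all features. Of the 1689 that were lower in vehicle, 1431 (84.7%) were higher with erlotinib 2, with a median of 0.17, and 498 (29.5%) lay above without overlap, against 7.4%. In the 15811 features not called between vehicle and PBS, 49.8% were lower and 50.2% higher. Across the 19339 features the difference between doses correlated with that between vehicle and PBS at r = -0.618 (Spearman -0.406), and with DEN 50 against PBS at week 12, where the titles name no vehicle in either group, at r = -0.615 (Spearman -0.429). Features are not independent replicates, and all arrays were normalized together.

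**Figure D5:**
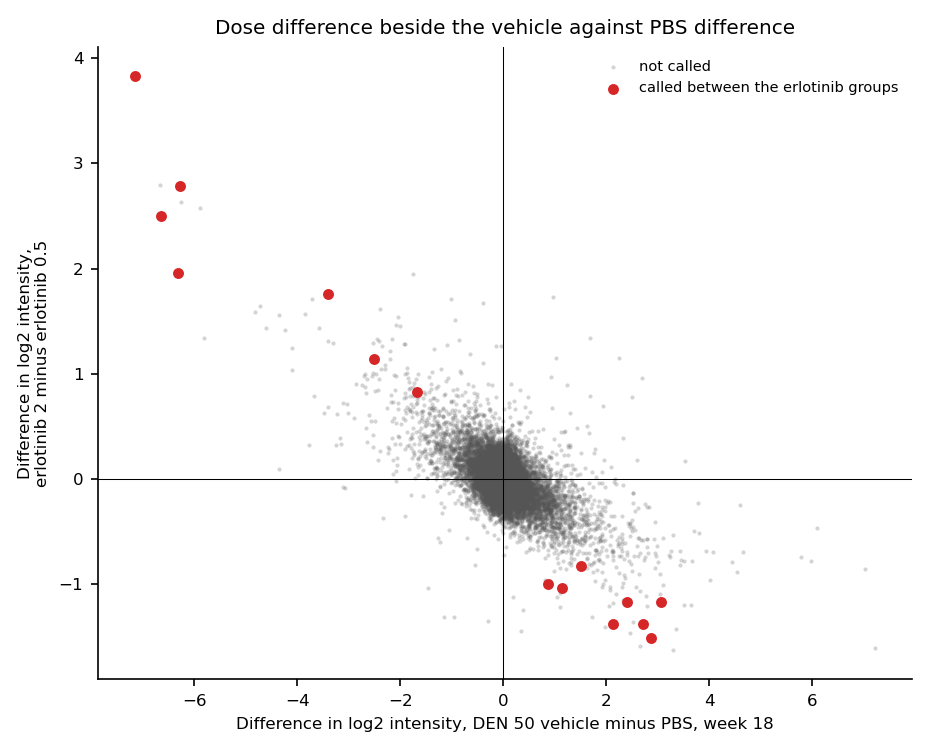
Each point is a feature, with the difference in log2 intensity between DEN-treated vehicle livers and PBS livers on the x axis and that between erlotinib 2 and erlotinib 0.5 on the y axis. The cloud runs from upper left to lower right (r = -0.618), and all 15 called features, in red, lie above 0 on the left or below 0 on the right.

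Other settings for these shares were added after the data were seen. The shares ran from 83.3% to 94.2% for the features higher in vehicle and from 79.1% to 94.3% for the lower ones over 3 other scalings and the omission of each erlotinib or vehicle array, and stood at 92% and 87.7% without vehicle array 24. The sets behind them shrank with scaling, as given above: 94.2% and 91.3% with median scaling rest on 1560 and 403 features, and 90.2% and 94.3% with scaling on bright probes on 800 and 1144. Some lists show it at the level of named genes. The median difference of vehicle from PBS was 1.03 for collagens, 1.49 for biliary and progenitor markers and 3.16 for preneoplastic markers, against medians of -0.47, -0.64 and -0.59 between the doses. For male-biased genes it was -3.71 against 1.39, and for the urea cycle and amino acid catabolism -1.15 against 0.42. Other lists show little of it, with 0.35 against -0.02 for the transforming growth factor beta pathway and 0.36 against -0.09 for stellate cell and myofibroblast genes. The 2 medians had the same sign for glycolysis and gluconeogenesis (-0.29 and -0.02) and for neutrophil markers (0.115 and 0.046). Because the lists were written with earlier results known, these medians test nothing.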

How the data were processed

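Non-tumour liver RNA of male Wistar rats was hybridised to 21 Illumina arrays in 7 groups of 3, grouped by the array titles. The authors deposited raw, linear bead intensity values for 22523 probes without detection p-values. They also deposited a normalized intensity table, which keeps the probe order of each array (Spearman correlation 0.99981 to 0.99996). The sources used here do not name the method behind it. An array gives no counting depth, and the number of arrays limits the precision.

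Raw intensities were corrected by normexp with an offset of 50, logged (log2) and quantile normalized in R 4.3.3 with limma 3.58.1. A probe was kept when it exceeded percentile 40 of the array on 3 or more arrays. Each gene was read from its brightest probe. Of the probes, 13793 carry 1 gene symbol, 0 several and 8730 none, and 13752 of those with a symbol were found in a RefSeq table that served for names. A group mean at or below 6.38 counted as near background. Group means were fitted over all 21 arrays (14 residual degrees of freedom), with Benjamini-Hochberg adjustment over 19339 features. The exact permutation test of 3 against 3 arrays cannot go below 0.1 and was not used. No paired block was fitted, and no column was left out.

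Named are the called genes without overlap (up to 15 per direction), 32 chosen genes and up to 4 genes per list by the moderated statistic; not every one is named. Acta2 and Etv5 have no named probe here. The comparison, the chosen genes and the 50 gene lists (944 measured genes) were chosen with earlier results of these data known, and lists not given in the text held no call. The fit was tested on simulated data. Figures were drawn with Python 3.11.15 and matplotlib 3.10.9. Alternatives were other scalings, filters, spreads, sets of arrays, probe rules and thresholds, and leaving out each array.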

Additional observations from a re-analysis of the deposited data

How the results depend on the processing

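Against 15 features called between the erlotinib doses there were 4 with the deposited normalized table, 5 without background correction, 1 with median scaling, 3 with scaling on bright probes, 26 with a trended and robust spread (10 shared with the 15), 194 with array weights, 273 with the compared arrays alone and 92 with the week 18 arrays, and 15, 15, 15 and 12 with no filter, a stricter filter, the probe mean and a log2 difference of at least 1. Leaving out 1 array gave 1 to 29. Against 780 for erlotinib 2 and vehicle there were 125 with median scaling, 337 with scaling on bright probes and 258 with a log2 difference of at least 1, and 332 to 662 without 1 array. Against 27 for erlotinib 0.5 and vehicle there were 15 with the deposited table, 0 with median scaling, 0 with scaling on bright probes, 139 with array weights, 2 with the compared arrays alone, 85 with the week 18 arrays and 16 with a log2 difference of at least 1, and 3 to 36 without 1 array. The cause was not tested.

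For the 15 called features, 270 alternative values held 0 changes of sign and 107 losses of the call. Most of these settings could not change a sign, because the groups did not overlap or the difference stayed as it was. Without 1 array, Tagln stayed called in 6 of 6 fits (limma adjusted p up to 0.0325), Gpx3 and Col1a1 in 5, Mug2 in 3, Stac3, Serpine2 and Loxl1 in 1 and the others in 2. For 47 of the other genes named in the text, 846 values held 0 changes of sign and 60 gains of a call. In these too, another spread or a threshold cannot turn a sign. The most male-biased genes called was 9 and the fewest 0, and for stellate cell and myofibroblast genes 3 and 1. No paired analysis was possible because the groups share no replicate numbers. Dim probes, with a group mean near background, understate differences.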
